A study of Mus musculus with 2 samples.

Results

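The genes described here code for the subunits of the proteasome and for the factors that assemble and regulate it. They were taken from the expression table by symbol: every Psma, Psmb, Psmc, Psmd, Psme, Psmf or Psmg gene with a number was kept, apart from Psmb8, Psmb9, Psmb10, Psme1 and Psme2, the interferon-inducible forms. This gave 44 of the 14500 genes in the table. Of these, 32 are structural subunits of the 26S particle (8 core alpha, 7 core beta, 6 ATPases, 3 other subunits of the base and 8 of the lid), 7 are assembly chaperones and 3 are activators or inhibitors. The symbol search also brought in Psme2b, a retrogene copy of the activator subunit Psme2, and Psmc3ip, which works in meiotic recombination and is named only for its binding to the ATPase Psmc3. Psmb11, the thymus form of the catalytic subunit Psmb5, has no row and was not analysed here.

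RNA came from 46C cells, a mouse embryonic stem cell line with a green fluorescent protein reporter in the Sox1 locus, at passage 21 to 24, grown on gelatin in serum medium with LIF. The library titled PB, stood for cells with the empty vector, and the other, titled PB-Gbx2, for cells with a vector for the homeobox transcription factor Gbx2. Each group has 1 library, so no value has a replicate error, no test between the vectors was possible, and a difference can be read only beside the spread of other genes. In the labels each title is paired with the source name of the opposite vector, and the groups here follow the titles. By the source names, every direction below would be the other way. Gbx2 stood at a level of 345 in PB and 1178 in PB-Gbx2, 3.41-fold higher, which goes with the titles. All 10 stem cell markers looked up were listed. Of these, 5 were at least 1.2-fold higher in PB-Gbx2 and 0 at least 1.2-fold lower, against 25.5% and 25.9% of all genes. Klf4 (4701 and 10924), Nanog (8918 and 19872) and Zfp42 (8320 and 16671) were at least 2-fold higher, as were 5.14% of all genes. Pou5f1 stood at 9446 and 10597. Tfcp2l1 (12900 and 11892) and Utf1 (3843 and 3430) were lower by less than 1.2-fold, and Tdgf1 had a level of 31035 in both libraries. Of 8 fibroblast markers 4 were listed, with a summed level of 1633 in PB and 1032 in PB-Gbx2, while Col3a1, Dcn, Lum and Fap have no row. Thy1 (866 and 492) and Pdgfrb (626 and 486), which make up most of the sum, and Col1a1 (132 and 36) were lower in PB-Gbx2. Col1a2 (9 and 18) was higher. Of 11 markers of differentiated lineages 7 were listed, with a median log2 ratio of 0.90. Gata4, Gata6, T, Eomes and Sox1 were at least 1.5-fold higher in PB-Gbx2, as were 11.6% of all genes. In that order they stood at 36 and 68, 18 and 45, 6 and 24, 128 and 215, and 10 and 56. With all genes split by level into 10 classes of equal size, all but Eomes fell in the lowest class or the next. The SD of the log2 ratio was 1.15 and 0.98 in those classes. Tubb3 (1248 and 756) and Krt7 (43 and 4) were at least 1.5-fold lower, as were 12.2% of all genes. The summed level, 1489 in PB and 1168 in PB-Gbx2, went the other way because Tubb3 makes up most of it. The part of such cells, or of the shift in stem cell markers, in the differences below was not tested.

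The proteasome is the barrel-shaped protease that degrades proteins tagged with ubiquitin. Its core particle stacks rings of alpha subunits, which form the gate, around rings of beta subunits, which carry the proteolytic sites inside. The regulatory particle caps the barrel: the ATPases of its base unfold the substrate and push it through the gate, and its lid removes the ubiquitin chain. Subunits are built into the particle in fixed ratios, and their genes are known to be transcribed together, among others by the factor Nfe2l1 when proteasome activity is short. Pluripotent stem cells are known for high proteasome activity.

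The structural subunit genes were expressed at nearly the same level in both libraries. Of the 32 genes, 28 differed by less than 1.2-fold (87.5%), against 48.6% of all genes in the table. None of the 44 members reached a 2-fold difference in either direction, whereas 5.14% of all genes were at least 2-fold higher in PB-Gbx2 and 5.26% at least 2-fold lower. At 1.2-fold, 2 of 44 members were higher, Psmf1 and Psma8 (background 25.5%), and 4 of 44 were lower, Psmd3, Psma7, Psmd1 and Psmg3 (background 25.9%). The sign leaned to the lower side: 26 of 44 members lay below 0 and 16 above, against 48.9% and 49.2% of all genes, and 2 had the same level in both libraries (background 1.85%). Among the 32 structural subunits the lean was smaller, with 17 below 0, 13 above and 2 equal. At 1.1-fold, 13 members were lower and 3 higher, Psmf1, Psma8 and Psmd11 (background 35.9% in each direction), and at 1.5-fold, 0 were lower and 1 higher, Psmf1 (background 12.2% and 11.6%). The log2 ratio of the level in PB-Gbx2 to that in PB had a median of -0.04 over the 32 structural subunits and -0.06 over all 44 members, against 0.00 over all genes. Summed over the structural subunits, the level was 106915 in PB and 100268 in PB-Gbx2, 1.07-fold lower. In bulk RNA fewer cells that express a gene and less RNA per cell cannot be told apart.

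Part of this tightness goes with level, since ratios scatter less among genes with high levels. All structural subunits except Psma8 had a mean level from 893 to 6634. Among the 3993 genes of the table in that window, 67.2% differed by less than 1.2-fold and the SD of the log2 ratio was 0.33. Of the 31 subunits in it, 28 differed by less than 1.2-fold (90.3%), and their SD was 0.17. A total of 3 subunits in the window were at least 1.2-fold lower and 0 higher, against 16.4% and 16.5% of the genes there. The subunit ratios were thus closer together than those of genes of similar level in these 2 libraries, a difference that was not tested.

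**Figure D1:**
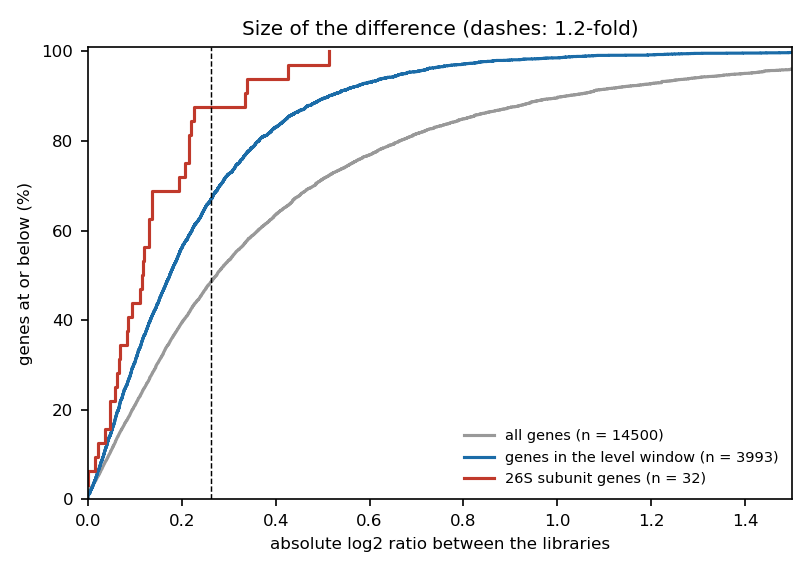
Share of genes (vertical axis, percent) whose absolute log2 ratio between the 2 libraries is at or below the value on the horizontal axis, for all 14500 genes, the 3993 genes with a mean level from 893 to 6634, and the 32 structural subunit genes. At the dashed line (1.2-fold) the curves stand at 48.6%, 67.2% and 87.5%.

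The alpha ring held one clearly lower subunit beside several with almost no difference. Psma7, the alpha4 subunit, stood at 4256 in PB and 3168 in PB-Gbx2, 1.34-fold lower (log2 ratio -0.43). Psma8, its close relative known from the testis, went the other way on a low level, from 158 to 200 (1.27-fold higher, log2 ratio 0.34). Genes at the level of Psma8 scatter more: when all genes were split into 10 classes of equal size by level, the SD of the log2 ratio was 0.60 in the class of Psma8 and 0.32 in that of Psma7. Psma6 had a level of 3822 in both libraries. Psma1 (1886 and 1964), Psma2 (3004 and 3104) and Psma3 (2742 and 2874) were 1.03-fold to 1.05-fold higher in PB-Gbx2. Psma5 (2612 and 2251) was 1.16-fold and Psma4 (4371 and 3978) 1.1-fold lower. With 4 of 8 above 0 and 3 below, the ring had a median log2 ratio of 0.02, but its summed level was 1.07-fold lower (22851 and 21361).

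Promoters are shown for the alpha subunit without a difference and for the one with the largest, to set their sequences side by side. They run from 250 bases before to 50 bases after the annotated start and come from RefSeq (build GRCm38.p6), 5′ to 3′ in the direction of the gene. Capitals mark any match, on either strand, to TGACNNNGC, the core of the antioxidant response element bound by Nfe2l1 and Nfe2l2, to CCAAT, the box bound by NF-Y, or to CCGGAAG, a core bound by ETS family factors. None of the marked matches in the printed promoters overlap each other.
Psma6 (chr12:55398575-55398874, plus strand): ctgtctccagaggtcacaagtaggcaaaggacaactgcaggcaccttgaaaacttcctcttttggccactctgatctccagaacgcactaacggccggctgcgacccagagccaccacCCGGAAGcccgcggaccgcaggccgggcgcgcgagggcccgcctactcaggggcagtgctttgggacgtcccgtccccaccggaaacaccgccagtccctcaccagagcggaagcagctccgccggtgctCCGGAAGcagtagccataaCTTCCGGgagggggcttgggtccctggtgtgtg
Psma7 (chr2:180042415-180042714, minus strand): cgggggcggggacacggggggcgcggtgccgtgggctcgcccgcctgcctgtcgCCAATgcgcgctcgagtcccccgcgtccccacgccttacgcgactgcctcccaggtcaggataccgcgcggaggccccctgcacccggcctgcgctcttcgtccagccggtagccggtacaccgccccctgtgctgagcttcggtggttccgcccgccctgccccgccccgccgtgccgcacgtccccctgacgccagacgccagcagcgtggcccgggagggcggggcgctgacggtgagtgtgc
The Psma6 promoter holds CCGGAAG 3 times and neither of the other motifs, and the Psma7 promoter holds CCAAT once and neither of the others. Psma6 has another annotated start, whose promoter has 2 CCAAT boxes and no CCGGAAG.

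Across the members, 36 of 44 had a promoter in the RefSeq table, and Psma8, Psmb1, Psmb2, Psmb7, Psmc3, Psmd3, Psmd7 and Psmg2 had none. CCGGAAG was in the promoter of 15 of these 36 genes (41.7%), compared with 19.3% of the genes in the expression table and 9.93% of all genes with a promoter entry. TGACNNNGC was in 6 of 36 (16.7%, against 17.0% of the genes in the expression table and 14.0% of all), namely those of Psmb5, Psmb6, Psmc6, Psmd12, Psmd9 and Psme4. CCAAT was in 13 of 36 (36.1%, against 43.2% and 41.1%). Among the 25 structural subunits with an entry, the median log2 ratio was -0.05 with CCGGAAG (10 genes) and 0.00 without, and 0.03 with CCAAT (10 genes) and -0.11 without. The 4 with TGACNNNGC had a median of -0.12, against 0.00 for the rest. All of these medians lie within 1.2-fold of no difference.

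All 7 beta subunits differed by less than 1.2-fold, and their median log2 ratio was -0.07. Those with proteolytic sites are Psmb5, Psmb6 and Psmb7, of chymotrypsin-like, caspase-like and trypsin-like activity. Psmb5 stood at 882 and 904, 1.02-fold higher in PB-Gbx2. Psmb6 stood at 4059 and 3757, 1.08-fold lower. Psmb7 stood at 1239 and 1060, 1.17-fold lower, the lowest ratio of the ring (log2 ratio -0.22). Of the subunits without such a site, Psmb4 (3606 and 3125) was 1.15-fold and Psmb1 (3978 and 3800) 1.05-fold lower. Psmb2 (1634 and 1796) was 1.1-fold and Psmb3 (3795 and 3854) 1.02-fold higher. The catalytic subunits thus showed no common direction. Of their interferon-inducible counterparts, left out of the set, Psmb8 has no row, and Psmb9 and Psmb10 were lower in PB-Gbx2. Psmb9, which replaces Psmb6, stood at 114 and 60 (1.90-fold lower) and Psmb10, which replaces Psmb7, at 304 and 274 (1.11-fold lower). The SD of the log2 ratio was 0.79 in the level class of Psmb9 and 0.52 in that of Psmb10. Per kilobase of transcript, the level of Psmb9 was 1.66% of that of Psmb6 in PB and 0.943% in PB-Gbx2, and that of Psmb10 was 21.7% and 22.9% of that of Psmb7. These shares depend on the length used, and on whether the deposited level grows with transcript length, which is not known. Per kilobase of coding sequence Psmb9 stood at 173.5 in PB and 91.3 in PB-Gbx2, and Psmb6 at 5684.9 and 5261.9.

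**Figure D2:**
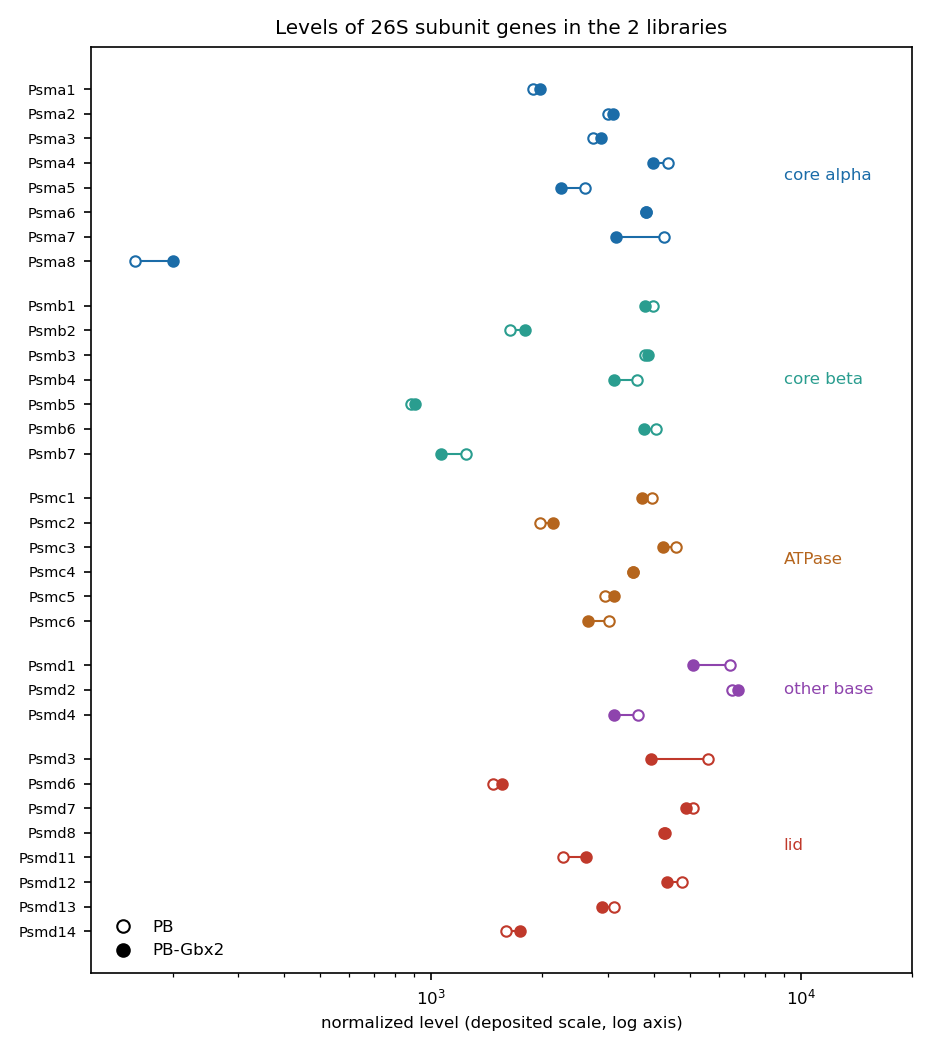
Normalized level (horizontal log axis, deposited scale) of each of the 32 structural subunit genes in the PB library (open circle) and the PB-Gbx2 library (filled circle), grouped by subcomplex, 1 library per circle. Most pairs of circles nearly touch, and Psmd3 (5620 and 3935), Psma7 (4256 and 3168) and Psmd1 (6436 and 5102) have the widest gaps, Psma8 aside.

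The 6 ATPases, which form the ring that unfolds substrates, also all differed by less than 1.2-fold. Their median log2 ratio was -0.05, with an SD of 0.12. Psmc4 had a level of 3513 in both libraries. Psmc2 (1964 and 2132) was 1.09-fold and Psmc5 (2945 and 3125) 1.06-fold higher in PB-Gbx2. Psmc6 (3031 and 2649) was 1.14-fold, Psmc3 (4610 and 4250) 1.08-fold and Psmc1 (3964 and 3716) 1.07-fold lower. The ring as a whole summed to 20027 in PB and 19385 in PB-Gbx2, 1.03-fold lower.

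The other base subunits, the scaffolds and ubiquitin receptors of the regulatory particle, had the lowest median of the subcomplexes, -0.22 over 3 genes. Psmd1, the scaffold that holds the receptor Adrm1, stood at 6436 and 5102, 1.26-fold lower in PB-Gbx2 (log2 ratio -0.34). Psmd4, a receptor for ubiquitin chains, stood at 3628 and 3116, 1.16-fold lower. Psmd2, the scaffold for ubiquitin shuttle proteins, stood at 6524 and 6744, 1.03-fold higher. The median rests on 3 genes, and with Adrm1 (3330 and 3376) added it was -0.10.

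The lid held the lowest ratio of all members. Psmd3, a scaffold subunit of the lid, stood at 5620 in PB and 3935 in PB-Gbx2, 1.43-fold lower (log2 ratio -0.51). In the level class of Psmd3, the highest of the 10, the SD of the log2 ratio was 0.32. Psmd14, the metalloprotease that cuts the ubiquitin chain off the substrate, stood at 1594 and 1744, 1.09-fold higher, and its partner Psmd7 at 5108 and 4894, 1.04-fold lower. Psmd11, a subunit that joins the lid to the base and core, had the highest ratio of the lid, 2267 and 2630 (1.16-fold higher, log2 ratio 0.21). Psmd6 (1468 and 1556) was 1.06-fold higher. Psmd12 (4768 and 4359) was 1.09-fold, Psmd13 (3129 and 2890) 1.08-fold and Psmd8 (4302 and 4256) 1.01-fold lower. With 3 of 8 genes above 0 and 5 below, the lid had a median of -0.04, and the lid and base together had one of -0.06 over 11 genes.

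Of the lid and base genes, promoters are shown for the most lowered one with an entry and for the highest one, with capitals for the same motifs.
Psmd1 (chr1:86064369-86064668, plus strand): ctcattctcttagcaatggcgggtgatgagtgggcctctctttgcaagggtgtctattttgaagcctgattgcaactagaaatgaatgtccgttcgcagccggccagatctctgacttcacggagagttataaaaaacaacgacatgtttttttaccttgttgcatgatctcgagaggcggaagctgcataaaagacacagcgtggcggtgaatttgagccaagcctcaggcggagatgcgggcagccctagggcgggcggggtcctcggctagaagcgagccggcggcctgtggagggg
Psmd11 (chr11:80428365-80428664, plus strand): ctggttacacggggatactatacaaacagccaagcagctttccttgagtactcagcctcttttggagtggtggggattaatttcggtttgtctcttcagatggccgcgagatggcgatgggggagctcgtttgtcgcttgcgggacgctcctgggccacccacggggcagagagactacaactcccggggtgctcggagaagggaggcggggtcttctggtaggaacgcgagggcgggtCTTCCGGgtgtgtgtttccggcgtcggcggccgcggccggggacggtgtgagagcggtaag
The Psmd1 promoter holds none of the 3 motifs, and the Psmd11 promoter holds CCGGAAG once, read on the reverse strand, 11 bases before the start.

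**Figure D3:**
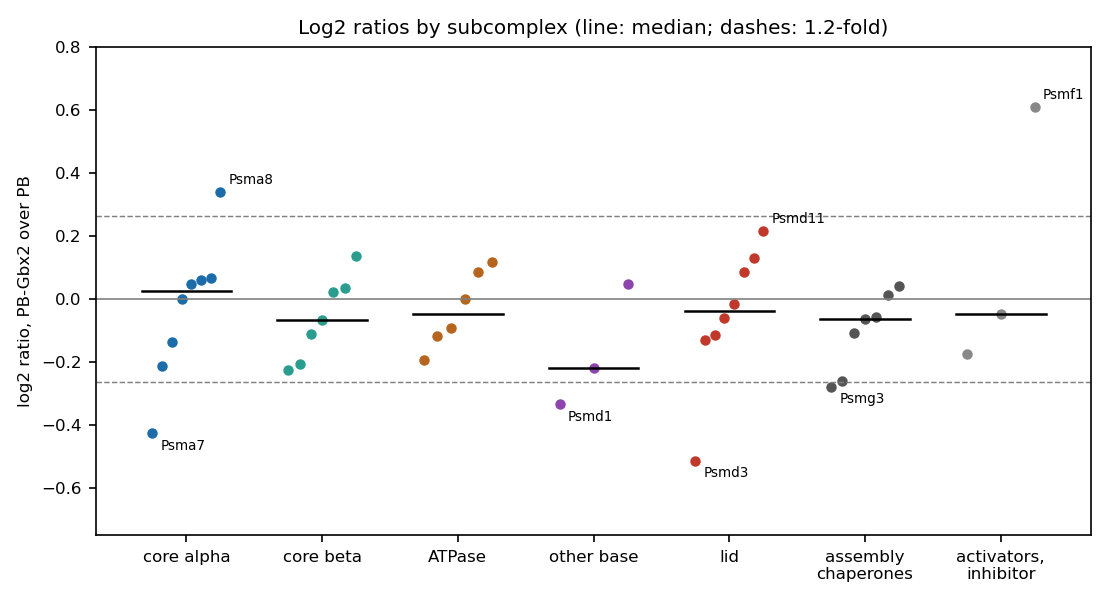
Log2 ratio of PB-Gbx2 over PB (vertical axis) for each structural subunit, assembly chaperone, activator and inhibitor gene, 1 point per gene, by subcomplex, with the median of each group as a black line and 1.2-fold as dashed lines. Psmd3, Psma7, Psmd1 and Psmg3 lie below the lower dashed line and Psma8 and Psmf1 above the upper one.

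Within a subcomplex, levels per kilobase of the longest protein-coding transcript were compared to describe how evenly the genes were expressed. The 6 ATPases ranged from 1100 (Psmc2) to 2534 (Psmc3) per kilobase in PB, a 2.30-fold range, and from 1186 (Psmc6) to 2440 (Psmc4) in PB-Gbx2, a 2.06-fold range. The alpha subunits without Psma8 spanned 3.89-fold in PB, from 964 (Psma3) to 3752 (Psma4), and 3.63-fold in PB-Gbx2. The beta subunits spanned 5.18-fold in PB, with Psmb5 lowest (981) and Psmb6 highest (5086), and 5.51-fold in PB-Gbx2. The lid spanned 4.06-fold in PB and 3.35-fold in PB-Gbx2, with Psmd11 lowest and Psmd7 highest in both libraries. By coding length its lowest gene was Psmd6 in both libraries. Per kilobase of coding sequence the alpha subunits without Psma8 spanned 2.39-fold in PB and 2.08-fold in PB-Gbx2, and the ATPases 2.47-fold and 2.1-fold. Which of these 2 groups was more even thus depended on the length used. The 3 other base subunits had the narrowest range of the subcomplexes by either length. This group has the fewest genes, and such a range tends to be narrower over fewer genes. They spanned 1.07-fold in PB and 1.39-fold in PB-Gbx2 by transcript length, and 1.42-fold and 1.54-fold by coding length. Whether the longest transcripts are the ones these cells use was not tested. Whether the deposited score grows with transcript length is not known, and these ranges hold only if it does. Psma8 stood at 93.4 per kilobase in PB and 118 in PB-Gbx2, far under every other alpha subunit.

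The assembly chaperones had mean levels per kilobase from 134 (Psmg3) to 839 (Psmg1), and most differed little between the libraries. Of 7 genes 5 lay below 0 and 2 above, with a median of -0.06. The Psmg genes code for the chaperones that build the alpha ring. Psmg3 stood at 130 and 107, the only one of them past 1.2-fold (1.21-fold lower, log2 ratio -0.28). That is smaller than the SD of the log2 ratio in its level class, 0.79. Psmg1 (893 and 858), Psmg2 (506 and 484) and Psmg4 (222 and 206) were 1.04-fold to 1.08-fold lower. Psmd5, Psmd9 and Psmd10 guide the assembly of the base. Psmd9 stood at 429 and 358, just inside the 1.2-fold limit (log2 ratio -0.26), while Psmd5 (2050 and 2111) and Psmd10 (242 and 244) were 1.03-fold and 1.01-fold higher.

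Of the genes that act on the assembled core, the inhibitor had the largest ratio of all 44 members. Psmf1 (PI31), which inhibits the core in the test tube, stood at 182 in PB and 278 in PB-Gbx2, 1.53-fold higher (log2 ratio 0.61). That is close to the SD of the log2 ratio in its level class, 0.60. Psme3, the nuclear activator ring, stood at 3817 and 3378, 1.13-fold lower. Psme4, the activator known for acetylated histones, stood at 6744 and 6524, 1.03-fold lower. Psme2b stood at 40 and 34 and Psmc3ip at 551 and 496, both under 1.2-fold.

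In the authors' deposited table none of the 44 members has a p-value under 0.05, as 3.74% of all rows do, and all 44 have an adjusted p of 1. The lowest p there is that of Psmd3, 0.1. The authors' values rest on 1 library per group. Reads of 8 members may be shared with near-identical transcripts of other genes (at least 95% identity over at least 50% of the transcript): Psma4, Psma5, Psmb3, Psmb5, Psmc1, Psmd2, Psmd11 and Psme2b. The partners are processed pseudogenes or other copies, and for Psme2b the parent gene Psme2 (99.4% identity). The levels of these genes are uncertain to that extent, and without them the median of the structural subunits was -0.06.

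Proteasome parts with other symbols showed small differences too. Adrm1, the ubiquitin receptor of the base, stood at 3330 and 3376. Shfm1, the small lid subunit also called Sem1, stood at 1062 and 1254, 1.18-fold higher in PB-Gbx2. Pomp, the chaperone that matures the core, stood at 2190 and 1838, 1.19-fold lower. Akirin2, which brings proteasomes into the nucleus, stood at 700 and 851, 1.22-fold higher and the only one of the 5 listed genes past 1.2-fold. Of the 3 enzymes bound to the proteasome that trim or extend ubiquitin chains, Usp14 (2096 and 1900) and Uchl5 (1304 and 1230) were lower and Ube3c (1481 and 1578) higher, all under 1.2-fold.

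Genes upstream of the proteasome went in both directions. Of 9 listed ubiquitin shuttle and adaptor genes, Zfand5 (551 and 708) and Ddi2 (890 and 1130) were at least 1.2-fold higher, and Rad23b (8143 and 6736) was at least 1.2-fold lower, shares near or under those of all genes (25.5% and 25.9%). Zfand2a (400 and 480) lay at the limit and just under it on the log2(level + 1) scale. Ddi2 is the protease that activates Nfe2l1. Of 5 genes of the unfoldase p97 and its cofactors, Vcp, p97 itself, stood at 7581 and 7349. The glycanase Ngly1, which also acts on Nfe2l1, was 1.60-fold lower (128 and 80), and the cofactor Nsfl1c 1.24-fold lower (2186 and 1764). In the level class of Ngly1 the SD of the log2 ratio was 0.79. The ubiquitin gene Ubb had a level of 11906 in both libraries. Rps27a, which codes for ubiquitin fused to a ribosomal protein, stood at 16722 and 14274. Of the enzymes that activate ubiquitin, Uba1 stood at 10277 and 10586 and Uba6 at 1498 and 1098 (1.36-fold lower).

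Transcription factors known to drive proteasome genes showed no common direction. Nfe2l1 stood at 4888 in PB and 4414 in PB-Gbx2, 1.11-fold lower. Nfe2l2 stood at 1357 and 1713, 1.26-fold higher, and its inhibitor Keap1 at 222 and 268, 1.21-fold higher. The small Maf partners were Mafg (1376 and 1464), Mafk (310 and 283) and Maff (476 and 366, 1.30-fold lower). Of the NF-Y subunits, Nfya was 1.19-fold lower (1719 and 1444), Nfyb nearly level (1691 and 1684) and Nfyc 1.52-fold higher (348 and 530). In the level class of Nfyc the SD of the log2 ratio was 0.39. RNA levels do not show the activity of these factors, which is set largely by processing and stability of the protein.

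Other large complexes with fixed composition had ratios of the same size as the proteasome. The COP9 signalosome and the translation factor eIF3 are built from the same families of domains as the lid. All 9 COP9 genes differed by less than 1.2-fold, with 7 below 0, 2 above, a median of -0.07 and a standard deviation of 0.10. Of 12 listed eIF3 genes 11 differed by less than 1.2-fold, with a median ratio (log2) of 0.02 and an SD of 0.19, and the exception was Eif3c (12936 and 9467, 1.37-fold lower). The 8 genes of the CCT chaperonin had a median log2 ratio of 0.00 with an SD of 0.13, with Cct3 (10924 and 9084) 1.2-fold lower. The SD over the 32 proteasome subunits was 0.18, between those of CCT and eIF3. The 4 listed genes of the immunoproteasome set were all below 0, with a median of -0.17. Besides Psmb9 and Psmb10 these are the activator subunits Psme1 (1563 and 1500) and Psme2 (1078 and 946). These differences between complexes were not tested.

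**Figure D4:**
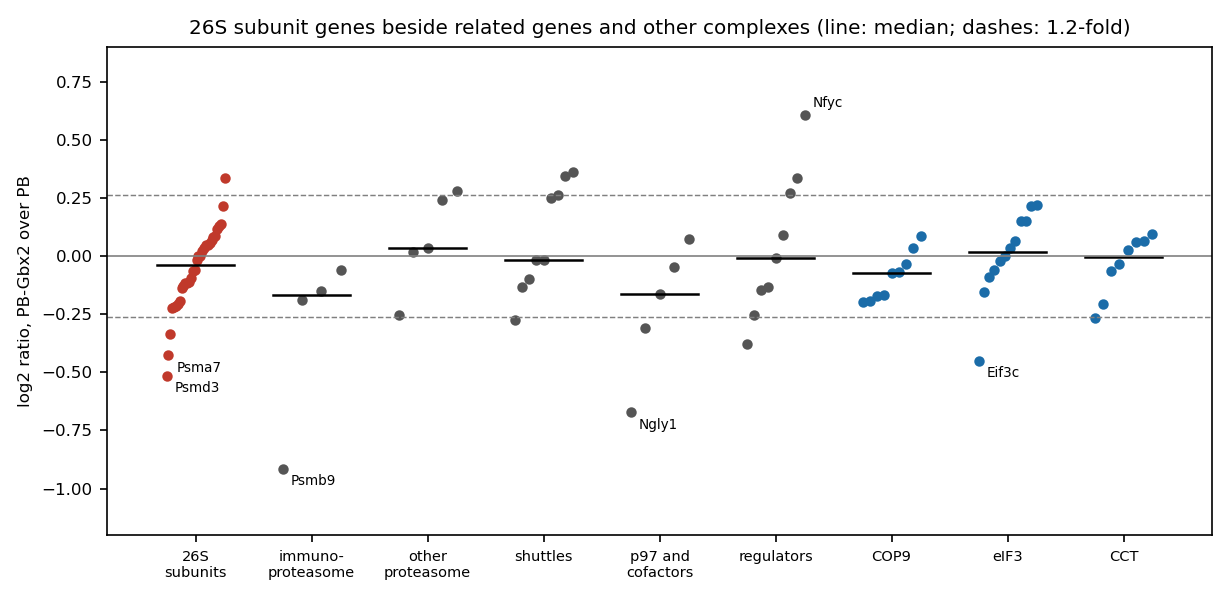
Log2 ratio of PB-Gbx2 over PB (vertical axis) for the 32 structural subunit genes (red), related genes of the ubiquitin and proteasome system (grey) and other complexes (blue), 1 point per gene, with medians as black lines and 1.2-fold as dashed lines. COP9, eIF3 and CCT spread about as little as the proteasome subunits, while Psmb9 (log2 ratio -0.91), Ngly1 (-0.67) and Nfyc (0.61) lie further from 0. Genes at the lower levels of these 3 scatter more: the SD of the log2 ratio was 0.79 in the level class of Psmb9 and Ngly1 and 0.39 in that of Nfyc.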

How the data were processed

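RNA-seq libraries were made with a TruSeq kit from RNA taken with Trizol, per the labels' protocols, and reads were handled with STAR and mm9, per the submitters' processing notes. Which versions, gene models and counting program were used is not given in the sources used here. Each gene's level is a deposited whole number, a normalized score and not a read count: once sorted, the 2 columns match in all 14501 rows. Depth is therefore unknown, and a difference in overall distribution cannot be seen. Per the file headers the authors also deposited a ratio (fold change, PB over PB-Gbx2), the log2 of that ratio, a p-value and an adjusted p-value. The 2 rows that share a symbol (a symbol turned into a date) were summed.

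Ratios of PB-Gbx2 to PB were taken on the log2(level + 1) scale, on which changes of weakly expressed genes look smaller than they are. Fold values in the text are ratios of deposited levels. A gene counted as higher or lower from 1.2-fold or 2-fold. With 1 library per group, no p-value was computed. The members and the gene lists were chosen with earlier results of these data known. All members could be named; from the other lists, Gbx2, Nfe2l1, Nfe2l2, Adrm1, Pomp and up to 3 members with the largest absolute log2 ratio were named by rule, and the others named were chosen after their values were seen. Lengths came from GENCODE M21 (all 44 members matched by symbol) and promoters from RefSeq (GRCm38.p6), which are not the build of the files, so positions are those of the promoter table. Near-identical transcripts were sought with megablast. Alternatives were other pseudocounts, a minimum level of 100, rescaling, centring by level, other fold limits and other memberships. Some genes that the lists cover are not reported here. The counts and medians were checked on simulated levels with fixed shifts and no noise, which tests the arithmetic only. Python 3.11.15, numpy 2.4.6, pandas 2.3.3 and matplotlib 3.10.9 were used.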

Additional observations from a re-analysis of the deposited data

How the results depend on the processing

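A single median moved by more than 0.1 (log2) across 0: that of the core alpha subunits, 0.02 as reported, was -0.10 by the ratio of summed levels. Of 86 medians under alternatives 84 moved by less than that, and the other one that did not was the base without ATPases, at -0.10 with Adrm1 added, which was chosen after seeing the data. Of 52 counts 46 stayed within 1.5 times the reported ones. A 1.1-fold limit gave 13 members lower, and a 1.5-fold limit 0 lower and 1 higher, so that the lean to the lower side seen at 1.1-fold and 1.2-fold was not there. With structural subunits alone, 17 lay below 0, 13 lay above 0 and 1 was at least 1.2-fold higher. Without Psme2b, Psmc3ip and Psma8, also chosen after seeing the data, 1 was higher. These counts differ because other genes or another limit enter them. The range of levels per kilobase in the alpha ring was 2.39-fold by coding length. None of the 219 member ratios under alternatives moved by 0.1 or more. Of 663 single gene ratios under alternatives, members included, 9 did. All 9 were marker ratios under another pseudocount, for Col1a1, Col1a2, Gata6, T, Sox1 and Krt7. Rescaling and the highest row for a repeated symbol change almost nothing by construction and say nothing about stability. No paired analysis was possible because there is only 1 library per vector, which also prevents leaving one out. Depth is unknown, so no counting error could be given.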

Other observations

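The deposited levels are graded in steps that bear on the smallest ratios given here. For 30 of the 44 members the rank among all genes differed between the libraries by an exact multiple of 10. For 2 of them, Psma6 and Psmc4, it differed by 0. The share over all genes was not counted, so this cannot be read as a trait of the members. A median of 2 genes, the subunit included, shared the level of a structural subunit in each library. The step from there to the next higher level was 0.07% to 1.52% in PB and 0.06% to 1.78% in PB-Gbx2. For Psmd8 a rank shift of 10 spanned more than that step. It went from rank 693.5 in PB to 703.5 in PB-Gbx2 and from 4302 to 4256, 1.01-fold, while its step in PB was 0.09%. Ratios near 1.01-fold can thus be the size of a single such shift. Psmd2 and Psme4 held the same pair of levels in exchange: Psmd2 stood at 6524 in PB and 6744 in PB-Gbx2, and Psme4 at 6744 and 6524. The cause of this grading was not tested. Equal levels therefore mean equal positions on this graded scale, and whether the read counts were equal cannot be seen.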
